A study of Mus musculus with 2 samples.

Results

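Integrins and laminins were examined in RNA of 4T1 cells, a mouse mammary carcinoma cell line that spreads to the lung. The genes were chosen by name, as the protein-coding genes of the integrin α subunits, the integrin β subunits and the laminin α, β and γ chains. The rule found 37 of the 21911 genes listed, namely 18 integrin α genes, 8 integrin β genes and 11 laminin genes, and every such symbol of the annotation was listed. Cells were kept for 48 h with PBS (1 library) or with potassium oxalate (1 library), starting from 5000000 cells. The labels give the oxalate dose as 20 mM in the treatment protocol and as 20 µM in the sample characteristics, and the study's methods give 20 µM. The cell line and culture were the same in both conditions, and no transgene or other agent is named for these libraries. As a model, these were cells of 1 line in culture without a host. The authors deposited FPKM values (fragment counts divided by transcript length and by sequencing depth), in which genes can be compared per length. Such comparisons between genes depend on the length used for each gene, which is not given in the sources used here.

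Integrins are receptors made of 1 α and 1 β subunit that hold a cell to the matrix and pass signals inward through talin, kindlin and focal adhesion kinase. The pairing sets the ligand, so that α2β1 binds collagen, α3β1, α6β1 and α6β4 bind laminins, and αv integrins bind proteins with the RGD motif such as fibronectin. Laminins are secreted trimers of an α, a β and a γ chain that build the basement membrane and are named by their chain numbers. The α6β4 integrin is a core receptor of the hemidesmosome, which anchors epithelial cells to that membrane, where laminin 332 is its ligand.

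The 4T1 cells carried RNA for a set of integrins and laminins led by Itga3 and Itgb1, and this set differed little between the PBS and the oxalate library. Of the 37 genes, 20 reached a mean of 1 FPKM over both libraries, and these were compared as log2((oxalate + 1)/(PBS + 1)). The remaining 17 were below that level, of which 8 were listed at 0 in both libraries and 9 were above 0 in at least 1 library. None of the 20 genes differed by 2-fold or more, against 0.653% of the 10267 genes compared in the series (0.292% higher and 0.360% lower with oxalate). None differed by 1.5-fold either, against 1.99% (0.935% higher and 1.05% lower). Each condition had 1 library, so replicate error is unknown, no test between the conditions was possible and every difference stands without a replicate. In a bulk culture, fewer cells that use a gene and less RNA per cell cannot be told apart.

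The label of the cells was checked on marker genes. All 6 epithelial markers (Epcam, Cdh1, Krt7, Krt8, Krt18 and Krt19) were between 125.33 and 703.31 FPKM. Of the leukocyte markers, Ptprc, Cd3e, Adgre1 and Ly6g were listed at 0 in both libraries, and Csf1r was at 4.93 FPKM in the PBS library and 5.18 FPKM in the oxalate library. The 5 endothelial markers reached at most 0.05 FPKM, the 4 muscle markers 0.35 FPKM and the 3 platelet markers 0.22 FPKM. Of the 5 fibroblast markers, Col1a1 was at 143.48 and 144.61 FPKM and Pdgfra at 1.88 and 1.93 FPKM, while Col1a2, Dcn and Lum stayed under 1 FPKM. The depth of the libraries, estimated from the steps of low FPKM values, was about 56768153 reads for PBS and 36441084 for oxalate.

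The promoters of 4 genes are shown because they frame the result on subunits with and without a partner. Itga3 and Itgb1 encode the subunits of α3β1, the pair with the most RNA, whereas Itgb7 was transcribed while its partner Itga4 was listed at 0. The sequences run from 250 bases before to 50 bases after a RefSeq start site, on GRCm38.p6, and are written in the direction of the gene. Itga3 lies at chr11:95076665-95076964 (minus strand), Itgb1 at chr8:128685404-128685703 (plus strand), Itgb7 at chr15:102231886-102232185 (minus strand) and Itga4 at chr2:79255176-79255475 (plus strand). Capitals mark matches to the SP box (GGGCGG or its reverse complement CCGCCC), which Sp and Klf factors are known to bind.
Itga3: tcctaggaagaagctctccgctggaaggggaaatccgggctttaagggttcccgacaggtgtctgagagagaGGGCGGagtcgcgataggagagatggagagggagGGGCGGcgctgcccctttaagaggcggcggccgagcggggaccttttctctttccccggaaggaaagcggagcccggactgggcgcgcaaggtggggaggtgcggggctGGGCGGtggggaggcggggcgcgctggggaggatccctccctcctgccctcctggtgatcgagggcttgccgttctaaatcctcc
Itgb1: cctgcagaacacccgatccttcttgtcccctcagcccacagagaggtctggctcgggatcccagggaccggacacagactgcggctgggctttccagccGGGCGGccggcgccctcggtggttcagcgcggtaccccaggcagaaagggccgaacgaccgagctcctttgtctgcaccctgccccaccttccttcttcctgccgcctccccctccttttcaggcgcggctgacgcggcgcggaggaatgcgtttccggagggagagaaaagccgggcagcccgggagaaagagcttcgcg
Itgb7: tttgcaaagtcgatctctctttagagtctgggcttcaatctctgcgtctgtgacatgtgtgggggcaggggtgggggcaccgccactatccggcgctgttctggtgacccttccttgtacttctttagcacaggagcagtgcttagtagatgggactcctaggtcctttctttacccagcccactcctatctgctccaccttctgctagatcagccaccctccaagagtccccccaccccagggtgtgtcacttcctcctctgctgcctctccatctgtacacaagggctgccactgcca
Itga4: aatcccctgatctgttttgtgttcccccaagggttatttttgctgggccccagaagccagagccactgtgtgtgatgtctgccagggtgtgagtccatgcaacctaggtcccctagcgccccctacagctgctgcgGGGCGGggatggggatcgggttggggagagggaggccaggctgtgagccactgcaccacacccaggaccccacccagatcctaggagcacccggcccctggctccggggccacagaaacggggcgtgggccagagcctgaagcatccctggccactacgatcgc

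The Itga3 window held 3 SP boxes, the Itgb1 and Itga4 windows 1 each and the Itgb7 window 0. A start site was found for 23 of the 37 genes. Among them, 8 of 13 promoters of genes with a mean of 1 FPKM or more held an SP box (61.5%), and 3 of 10 promoters of genes below that level (30.0%). Over all 16457 promoters of protein-coding genes listed, the share was 69.5% above and 28.2% below that level. CpG dinucleotides followed the same order, with a median of 18 per window in the integrin and laminin genes above 1 FPKM and 8 in those below, against 22 and 5 in all genes. The Itga3 and Itgb1 windows held 24 and 27 CpG dinucleotides, Itga4 10 and Itgb7 5. The TATA box (TATAAA or TTTATA) was found in 0 of the 23 windows and in 12.9% of all promoters. The AP-1 motif (TGANTCA, a palindrome read on both strands) was found in 2 of the 23 windows, those of Itgax and Itga9, and in 6.95% of all promoters. The CCAAT box (CCAAT or ATTGG) was found in 3 of the 23, Lamb1, Itgax and Itgb8, and in 38.5% of all promoters. None of the 4 motifs contains another. For Lamb3 and Itga9 the RefSeq start lay 94269 and 105002 bases from the start of the main GENCODE transcript. A match describes the letters of the window only.

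Among the integrin α subunits, Itga3 had by far the most RNA. Itga3 (ENSMUSG00000001507, chromosome 11, 95044474 to 95076801), the α chain of a laminin receptor of epithelial cells, was at 503.96 FPKM with PBS and 445.31 FPKM in the oxalate library (log2 fold change -0.18). It ranked 131 and 148 among all genes listed. Itga3 made up 76.6% of the summed FPKM of the 18 α genes with PBS and 74.5% with oxalate. Thus its level was 8.08-fold that of Itga2 with PBS and 7.89-fold with oxalate, per length.

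The next α genes lay between 29.83 and 62.4 FPKM. Itga2, which encodes the α chain of the collagen receptor α2β1, was at 62.4 FPKM in the PBS library and 56.44 FPKM in the oxalate library (log2 fold change -0.14). Itga6, which pairs with β1 or β4 to bind laminins, was at 51.67 and 52.77 FPKM (0.030). Itgav, which joins several β subunits to bind RGD proteins, was at 29.83 and 33.24 FPKM (0.15). Itga2 and Itga6 therefore stood close together in the oxalate library, and Itgav below both in each library. Further down, Itga5, the classical fibronectin receptor chain, was at 6.44 FPKM in the PBS library and 5.96 FPKM in the oxalate library (-0.096). Itga7, a laminin receptor chain best known from muscle, was at 2.27 and 2.13 FPKM (-0.063). Itga8, an RGD receptor chain known from kidney development, was at 1.18 and 1.24 FPKM (0.039), just above the level used for comparison.

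The other 11 α genes were between 0 and 0.2 FPKM. Itga4, Itga9, Itga11, Itgal and Itgam were listed at 0 in both libraries. Itga1, the other collagen receptor chain of the same gene neighbourhood as Itga2, was at 0.18 FPKM in the PBS library and 0.2 FPKM in the oxalate library. The 2 genes lie 20995 bases apart on chromosome 13, and Itga2 was 347-fold and 282-fold above Itga1 per length. Itga1 overlaps Pelo on the same strand, so part of its low value is uncertain. On chromosome 7, Itgam, Itgax and Itgad lie with gaps of 11055 and 3718 bases, and none of them passed 0.02 FPKM in either library. Itga10 was at 0.12 and 0.19 FPKM, Itga2b at 0.04 and 0.06 FPKM and Itgae at 0.03 and 0.04 FPKM.

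Among the β subunits, Itgb1 was the most abundant, and Itgb2 and Itgb7 were present without a partner. Itgb1 (ENSMUSG00000025809, chromosome 8, 128685654 to 128733200), the common partner of 12 α subunits, was at 376.26 FPKM in the PBS library and 362.72 FPKM in the oxalate library (log2 fold change -0.053). It made up 77.8% of the summed FPKM of the 8 β genes with PBS and 75.5% with oxalate. Itgb5, an αv partner that binds vitronectin, was at 41.6 and 43.32 FPKM (0.057). Itgb4, the hemidesmosome subunit with a long cytoplasmic tail, was at 33.77 and 36.51 FPKM (0.11). These 3 genes kept the same order in both libraries.

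Itgb6, an epithelial αv partner known to activate latent TGF-β, was at 2.27 FPKM in the PBS library and 2.88 FPKM in the oxalate library (0.25). Itgb3, the αv and platelet αIIb partner, was at 0.3 and 0.36 FPKM, and Itgb8, also an αv partner, was listed at 0 in both libraries. Of these 3, Itgb6 alone was above 1 FPKM.

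Itgb2 (ENSMUSG00000000290, chromosome 10, 77530252 to 77565708), the common chain of leukocyte integrins, was at 24.36 FPKM in the PBS library and 28.09 FPKM in the oxalate library (log2 fold change 0.20). Its 4 known partners, Itgal, Itgam, Itgax and Itgad, reached at most 0.02 FPKM. Itgb7 (ENSMUSG00000001281, chromosome 15, 102215995 to 102231944), which forms the gut-homing integrin α4β7 and the E-cadherin receptor αEβ7 of lymphocytes, was at 5.06 and 6.71 FPKM (0.35). Its partners Itga4 and Itgae reached at most 0.04 FPKM. Both β genes of leukocytes were therefore found with RNA while the α genes that complete them were at or near 0. The leukocyte markers Ptprc, Cd3e, Adgre1 and Ly6g were at 0 in the same libraries, while Csf1r was at 4.93 and 5.18 FPKM, and the part of other cells in these values was not tested. Neither gene overlaps another listed gene.

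**Figure D1:**
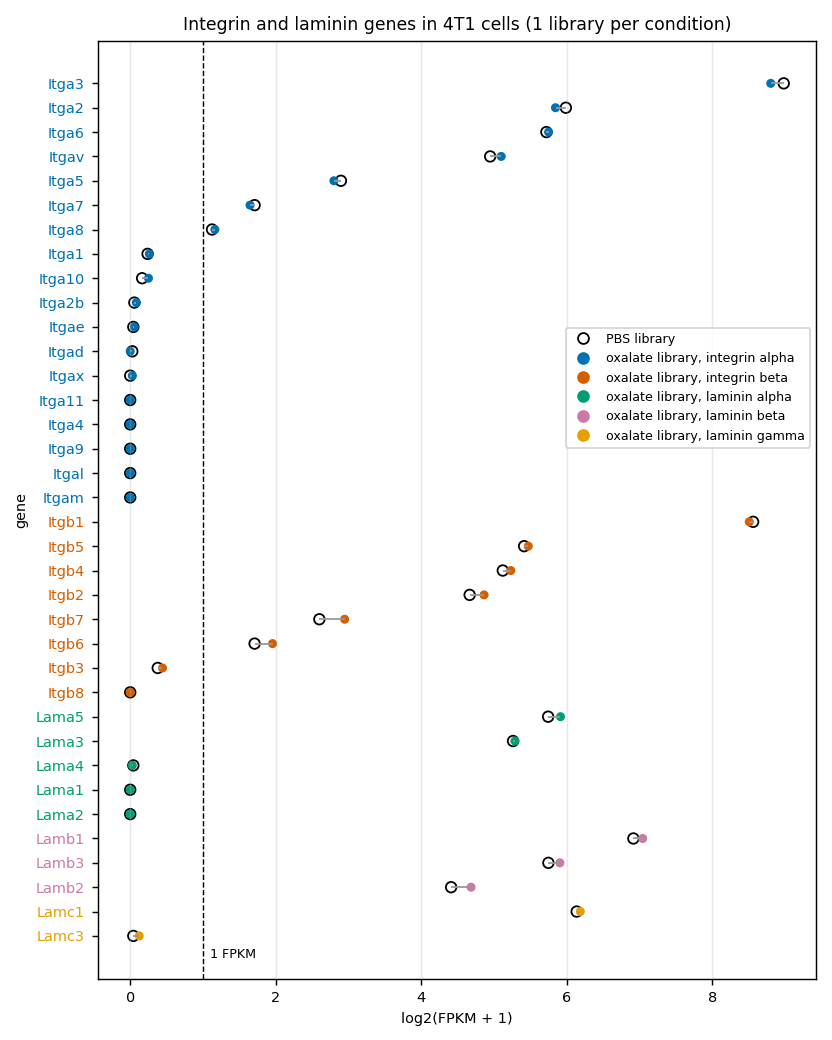
Level of 36 integrin and laminin genes as log2(FPKM + 1), with the PBS library as an open circle and the oxalate library as a filled circle coloured by family, 1 library per condition and no error bars. The paired circles lie close together for every gene, Itga3 and Itgb1 are highest, and 17 genes sit left of the dashed line at 1 FPKM.

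Among the laminin chains, those of laminins 511 and 521 were present, and the α chains Lama1, Lama2 and Lama4 were at or near 0. Lama5, the α chain of laminins 511 and 521, was at 52.55 FPKM in the PBS library and 59.23 FPKM in the oxalate library (log2 fold change 0.17). Lama3, the α chain of laminin 332, was at 37.34 and 38.05 FPKM (0.026). Lama1 and Lama2, the α chains of laminins 111 and 211, were listed at 0 in both libraries, and Lama4, a vascular and mesenchymal α chain, was at 0.03 and 0.02 FPKM. Lama5 thus took 58.4% of the α chain FPKM with PBS and 60.9% with oxalate.

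The 3 β chains were all higher in the oxalate library. Lamb1, a widely used β chain, was at 119.62 FPKM in the PBS library and 130.76 FPKM in the oxalate library (0.13). Lamb3, which occurs in laminin 332, was at 52.68 and 58.88 FPKM (0.16), and it overlaps G0s2 and Hsd11b1 on the other strand. Lamb2 (ENSMUSG00000052911, chromosome 9, 108479736 to 108490530), known from synapses and the kidney filter, was at 20.26 and 24.7 FPKM (0.27). Lamb2 was the lowest of the 3 in each library.

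Of the γ chains, Lamc1, which occurs in most laminins, was at 69.28 FPKM in the PBS library and 71.75 FPKM in the oxalate library (log2 fold change 0.050). Lamc3, a γ chain of few tissues, was at 0.03 and 0.09 FPKM. Lamc1 thus stood above Lama5 and below Lamb1 in each library. Summed over each class, the α chains had less RNA than the β chains, with 89.92 FPKM for PBS and 97.3 for oxalate against 192.56 and 214.34 FPKM.

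To ask which receptors these levels allow, a list of 24 known integrin pairs was compared with the FPKM values. A pair was taken as possible at the RNA level if each subunit had 1 FPKM or more in both libraries. This held for 10 pairs, which were α2β1, α3β1, α5β1, α6β1, α7β1, α8β1, αvβ1, αvβ5, αvβ6 and α6β4. By ligand, all 4 laminin-binding pairs, 5 of 8 RGD-binding pairs and 1 of 4 collagen-binding pairs were possible. None of the 6 pairs known from leukocytes, and neither α4β1 nor α9β1, was possible. RNA levels do not show which proteins pair or reach the surface.

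In 7 of the 10 pairs β1 was the partner, and the RNA of its α subunits exceeded its own. The 12 α genes that can pair with β1 summed to 658.05 FPKM in the PBS library and 597.48 FPKM in the oxalate library, against 376.26 and 362.72 FPKM of Itgb1. Within α3β1, Itga3 was 1.34-fold and 1.23-fold above Itgb1, so Itgb1 was the lower subunit. In the other 6 β1 pairs the α subunit was the lower one, from 1.18 FPKM for Itga8 to 62.4 FPKM for Itga2 in the PBS library. For α6β4 the lower subunit was Itgb4, with Itga6 1.53-fold above it with PBS and 1.45-fold with oxalate. For αvβ5 the lower subunit was Itgav, and for αvβ6 it was Itgb6. The lower subunit of each of the 10 pairs was the same gene in both libraries. Which subunit is lower also depends on the length used for each gene, and this part was not tested. The mean length of the coding transcripts was 3685.75 bases for Itga3 and 2263 bases for Itgb1.

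Of 15 laminin trimers from the same kind of list, 5 were possible, of which laminins 311, 321, 511 and 521 are described. Lama3 was the lowest chain of laminin 311, Lama5 of laminin 511, and Lamb2 of laminins 321 and 521, in both libraries. The other 10 trimers each had at least 1 chain under 1 FPKM. In laminin 523 this was Lamc3, in laminins 213, 223 and 423 it was Lamc3 and Lama2 or Lama4, and in the rest it was Lama1, Lama2 or Lama4.

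**Figure D2:**
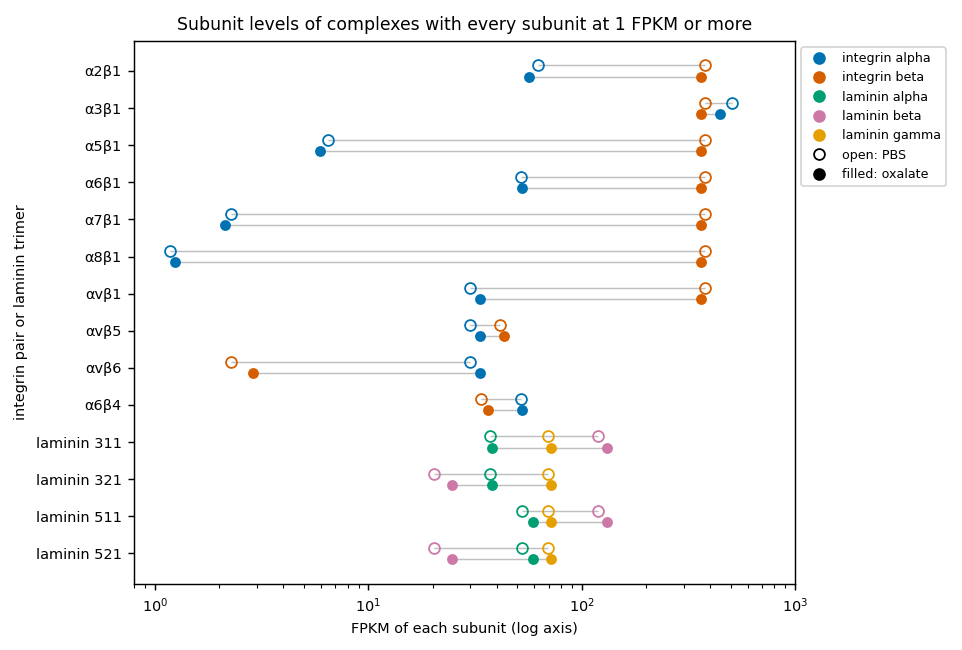
FPKM of every subunit (log axis) for 10 integrin pairs and 4 laminin trimers whose subunits all had 1 FPKM or more, with open circles for the PBS library and filled circles for the oxalate library, coloured by subunit class. The subunits of α3β1, αvβ5 and α6β4 lie near each other, while α7β1, α8β1 and α5β1 combine a high β1 with a low α subunit.

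Comparing oxalate with PBS, 14 of the 20 genes were higher and 6 lower, against 50.6% higher among all genes compared. By family, 8 of 13 integrin genes and 6 of 7 laminin genes were higher. The 2 integrin classes differed, with 3 of 7 α genes higher and 4 lower, but 5 of 6 β genes higher and 1 lower. The median log2 fold change was 0.053 for the 20 genes, 0.039 for the integrins and 0.13 for the laminins, beside 0.0031 for all genes. It was -0.063 for the α genes and 0.15 for the β genes. Summed over the 26 integrin genes, FPKM was lower with oxalate, at 1078.19 against 1141.76 with PBS. The range of the 20 genes ran from -0.18 for Itga3 to 0.35 for Itgb7. At a lower threshold of 1.2-fold, Itgb7 and Lamb2 were higher, which is 10% of the 20 genes against 4.75% of all genes in that direction, and none was lower, against 5.20%. In either direction it was 2 of 20 against 9.95% of all genes. A share that close to the background is no result about these genes.

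Counting error was small for the abundant genes and large for the low ones. Reads were estimated from the FPKM values and the mean length of the coding transcripts, and an exact (Clopper-Pearson) 95% interval of the log2 read ratio was formed for each gene. It covers counting error only and compares these libraries, not the conditions. For Itga3, with about 105445 and 59811 reads, the interval ran from -0.19 to -0.16. It ran for Lama5 from 0.15 to 0.20 and for Lamb2 from 0.19 to 0.38. Itgb7 rested on about 280.2 and 239 reads, and its interval ran from 0.16 to 0.67. For 5 of the 20 genes (Itga5, Itga6, Itga7, Itga8 and Lama3) the interval held 0, so that no difference was seen beyond counting error. It was widest among these for Itga8, from -0.25 to 0.38. The interval lay above 0 for 11 of the 20 genes and below 0 for 4, while among all genes with a known length it lay above 0 for 25.0% and below 0 for 23.9%. Such intervals narrow as reads grow, so these shares also depend on the level and length of the genes. They were not compared at equal numbers of reads. Many small differences between the libraries lay beyond counting error, within this gene set and across the series. No replicate shows how large differences between cultures are.

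Below 1 FPKM, Lamc3 was estimated at 8.97 reads with PBS and 17.3 with oxalate, with an interval of the log2 read ratio from 0.31 to 2.91. Values were deposited with 2 decimals, which is coarse at this level and is not covered by the interval. Itga10 had an interval from -0.042 to 1.41 and Itgb3 from -0.19 to 0.70, so that no difference was detectable for them.

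**Figure D3:**
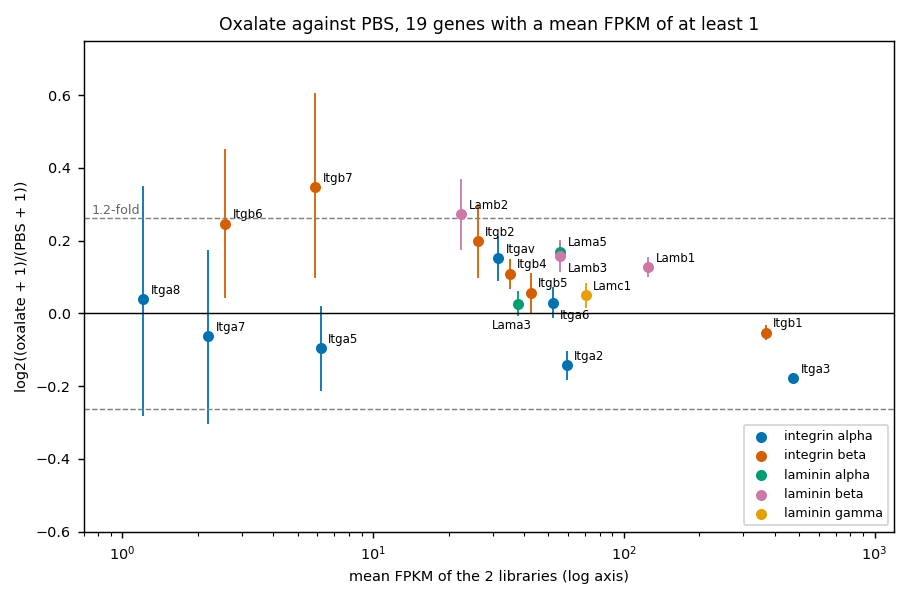
Difference between the oxalate and the PBS library as log2((oxalate + 1)/(PBS + 1)) against the mean FPKM (log axis) for 19 integrin and laminin genes with a mean of 1 FPKM or more. Bars are the width of the exact 95% interval of the log2 read ratio (counting error only), drawn around the point, and dashed lines mark 1.2-fold, which only Itgb7 and Lamb2 pass.

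Transcript length and GC content moved with the difference between the libraries, and their part in the values of single genes was not tested. Over all genes compared, the median log2 fold change went from -0.056 in the shortest of 10 equal groups of genes by transcript length to 0.039 in the longest, and from -0.066 in the lowest of 10 groups by GC content to 0.028 in the highest. Of the 20 genes, 12 were in the longest of 4 such groups and 10 in the highest of 4 by GC content. When each gene was set against the median of genes in the same one of 4 length groups and of 4 GC groups, a reference chosen after the values were seen, 12 of the 20 genes were higher and the median was 0.036. The laminin median became 0.070. Itga6 and Lama3 changed from slightly above to slightly below 0, at -0.0059 and -0.0093. Itga3 was at -0.24, Lamb2 at 0.24 and Itgb7 at 0.35 on this scale.

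**Figure D4:**
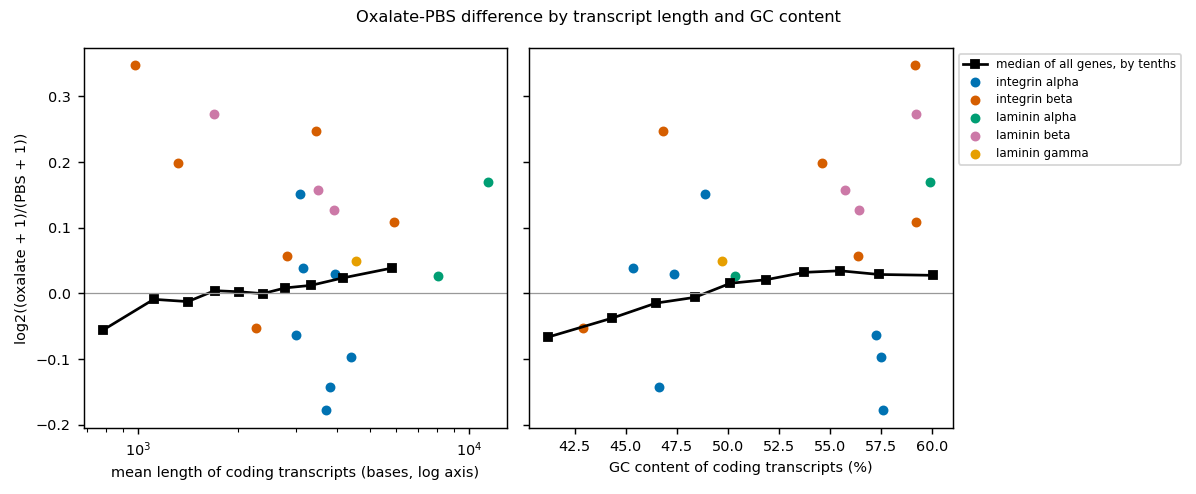
Difference between the oxalate and the PBS library, as log2((oxalate + 1)/(PBS + 1)), against the mean length of coding transcripts (left, log axis) and their GC content (right). Coloured points are 19 integrin and laminin genes and black squares the medians of all genes compared in 10 equal groups, which go from -0.056 to 0.039 with length and from -0.066 to 0.028 with GC content.

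Genes that act around integrins and laminins were described in 5 lists. Of 28 integrin activators and adaptors, 24 reached a mean of 1 FPKM, of which 16 were higher and 8 lower, none by 1.5-fold. Actn4, an actin crosslinker, was at 517.12 FPKM in the PBS library and 557.83 FPKM in the oxalate library (log2 fold change 0.11). Flna, which links integrin tails to actin, was at 277.37 and 317.15 FPKM (0.19). The median of the 24 was 0.038. Krit1, which binds the integrin regulator encoded by Itgb1bp1, was the only one of the 24 lower by 1.2-fold, at 13.22 and 10.79 FPKM (-0.27), against 5.20% of all genes, and it is named after its value was seen.

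Of 17 adhesion kinases and docking proteins, all were above 1 FPKM, 10 were higher and 7 lower. Elmo2, which works with Dock1 to activate Rac, was the only gene of these lists that differed by 1.5-fold, with 14.89 FPKM for PBS and 23.29 FPKM for oxalate (0.61). Over all genes compared, 0.935% were higher by that much and 1.99% differed in either direction. Rhoa, a GTPase of stress fibres, was at 321.74 and 310.45 FPKM, and Cdc42, a GTPase of filopodia, at 139.6 and 125.53 FPKM. The median of the list was 0.046.

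Among 10 genes of the laminin network and its other receptors, 6 reached a mean of 1 FPKM, with 4 higher and 2 lower and a median of 0.087. Rpsa, the ribosomal protein also known as the laminin receptor precursor, was at 2068.82 FPKM in the PBS library and 2228.41 FPKM in the oxalate library. Sdc1, a heparan sulfate proteoglycan, was at 116.79 and 115.89 FPKM. The nidogens Nid1 and Nid2, which bridge laminin and collagen IV networks, reached at most 0.17 FPKM, while the laminin-binding proteoglycans Hspg2 and Agrn were at 34.42 and 52.43 FPKM with PBS and at 38.76 and 59.13 FPKM with oxalate. The nidogens, Hspg2 and Agrn were named after their values were seen.

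Of 11 hemidesmosome and tetraspanin genes, 9 reached a mean of 1 FPKM, with 6 higher and 3 lower and a median of 0.053. Cd63 was at 427.83 FPKM in the PBS library and 483.56 FPKM in the oxalate library, and Cd9 at 366.95 and 372.55 FPKM, both of them tetraspanins that associate with integrins. Col17a1, the transmembrane collagen of the type I hemidesmosome, was at 0.05 and 0.11 FPKM and was named after its values were seen. In the same list, Krt5 was at 0 and 0.03 FPKM. Dst was at 33.17 and 36.64 FPKM and Cd151 at 95.96 and 99.59 FPKM, and these genes were named then as well. Plec, the plakin that ties α6β4 to keratin and also named then, was at 50.21 and 61.18 FPKM (0.28).

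Of 24 other integrin ligands, 13 reached a mean of 1 FPKM, with 10 higher and 3 lower and a median of 0.075. Fn1, which encodes fibronectin, was at 423.13 FPKM in the PBS library and 481.72 FPKM in the oxalate library (0.19), and Spp1, which encodes osteopontin, at 383.77 and 404.4 FPKM (0.075). None of the 13 differed by 1.2-fold, against 9.95% of all genes. In the 5 lists together, the genes that differed by 1.2-fold or more were Elmo2, Plec, Krit1 and the docking genes Crk and Arhgef7. Over all genes compared, 9.95% differed by that much in either direction, and the lists were not tested as sets. Higher were 3 of the 17 adhesion kinases and docking proteins and 1 of the 9 hemidesmosome and tetraspanin genes, against 4.75% of all genes. Lower was 1 of the 24 activators and adaptors, against 5.20%, and none differed by that much in the remaining lists. Crk, an adaptor of p130Cas and paxillin, was at 32.27 FPKM for PBS and 40.61 FPKM for oxalate (0.32), and Arhgef7, a Rac and Cdc42 exchange factor, was at 32.7 and 39.78 FPKM (0.28). Both were named after their values were seen.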

How the data were processed

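RNA of 4T1 cells was sequenced in 2 libraries, 1 per condition. The authors deposited FPKM values rounded to 2 decimals, made from oligo(dT)-enriched, randomly primed libraries. The submitters' processing notes name Bowtie2 2.2.8 and TopHat2 2.1.1 without a role, and the counter, genome build and annotation are not given in the sources used here. Symbols and coordinates were taken from GENCODE M21 (GRCm38), in which 21848 identifiers were found and 63 were not. Promoter sequences are from RefSeq (GRCm38.p6). For each gene the start nearest to that of its main GENCODE transcript was taken.

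Fold changes were log2((oxalate + 1)/(PBS + 1)), a scale that understates the change of low genes, over genes whose 2 libraries averaged 1 FPKM or more, and 2-fold was the threshold. Because there was 1 library per condition, no test between conditions was run. For genes with 1 transcript shorter than 700 bases, FPKM times length fell on steps of 0.0176 (PBS, 82 genes) and 0.0274 (oxalate, 66 genes), from which reads were estimated. Genes with several coding transcripts were given the mean length of these, and 97.6% of 42 PBS values and 94.4% of 36 oxalate values of up to 10 reads lay within 0.2 of a whole number. If the authors used other lengths, the reads of single genes differ.

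Every integrin and laminin gene entered the counts, medians and sums, and 1 of them and 1 marker gene are not reported here by value. From the 5 other lists, genes that differed by 1.5-fold and the 2 with the highest mean were named, with the exceptions stated. The members, the lists and the pairs were chosen with earlier results of these data known, from general knowledge. The alternatives were pseudocounts of 0.1 and 0.001, centring on the median, no filter, a mean of at least 5, thresholds of 1.5-fold and 1.2-fold, and presence at 0.5, 5 or 10 FPKM. The scripts were tested on simulated data. Computation used scipy 1.17.1, pandas 2.3.3 and numpy 2.4.6 under Python 3.11.15, and plots used matplotlib 3.10.9.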

Additional observations from a re-analysis of the deposited data

How the results depend on the processing

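No paired analysis was possible because there is only 1 library of each kind, which also means that no replicate could be left out. The count of genes that differed by 2-fold or more was 0 with every pseudocount alone, centring, filter and the 1.5-fold threshold. It was 2 at 1.2-fold. Without a filter and with a pseudocount of 0.001, which was added once the values were known, it was 3 (Itgad, Itgax and Lamc3), all at 0.09 FPKM or less, while either choice alone gave 0. The median log2 fold change of 0.053 stayed between 0.026 and 0.065. The 10 integrin pairs became 7 at 5 FPKM and 6 at 10 FPKM, where α5β1, α7β1, α8β1 and αvβ6 drop out by construction, and the 5 laminin trimers stayed at 5 at 0.5, 5 and 10 FPKM. For the 20 genes the direction held with both pseudocounts and with centring on the median of all genes. Centring by GC content and length, also chosen later, turned the direction of 2, Itga6 and Lama3, and moved 9 by more than their counting interval. Depth limits the low genes, since 1 read in a transcript of 1 kb is worth 0.0176 FPKM with PBS and 0.0274 with oxalate.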
